A study of Homo sapiens with 12 samples.

Results

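Serine synthesis and the folate cycle together supply the cell with serine, glycine and the one-carbon units used to build purines, thymidylate and methyl groups. PHGDH, PSAT1 and PSPH convert the glycolytic intermediate 3-phosphoglycerate to serine in the cytosol. The one-carbon unit is then taken from serine either in the cytosol, by SHMT1 and the trifunctional enzyme MTHFD1, or in mitochondria, by SHMT2, MTHFD2 or MTHFD2L and MTHFD1L, which release it as formate, and ALDH1L2 oxidises the mitochondrial one-carbon unit to carbon dioxide. The oxidising step of the mitochondrial arm, catalysed by MTHFD2, uses NAD+ as its electron acceptor, and several of these genes are known targets of the stress-induced transcription factor ATF4. The 10 genes described here were taken from the table of 36601 genes by their symbols: 3 of serine synthesis, 2 of the cytosolic and 5 of the mitochondrial folate cycle, and all 10 passed the filter on low values.

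The cells were KP4, a human pancreatic ductal carcinoma line, treated for 24 h with the vehicle DMSO, with 10 mM metformin (Met), with 5 nM FK866 (FK) or with both drugs (Met+FK). Metformin is a biguanide that inhibits complex I of the respiratory chain, and FK866 inhibits NAMPT, the enzyme that salvages nicotinamide for NAD synthesis. RNA depleted of ribosomal RNA was sequenced in 3 libraries per treatment, from which the study asked how the combination alters transcription compared with each drug alone. A single cell line was used, and the labels do not say whether the 3 libraries of a group come from separate cultures, so the p-values measure the spread between these libraries, which may be technical.

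Depth ranged from 30667735 to 41052203 read pairs per library, with a median of 34767231. Of 8 ductal markers 7 averaged 10 normalized counts or more. KRT18, KRT8 and SOX9 were the high ones, with medians of 11764, 2667 and 4325 over the 12 libraries. The medians of KRT7, MUC1, CDH1 and KRT19 were far lower, at 246, 104, 40.9 and 33.4, and EPCAM lay between 3.78 and 12.5. The summed ductal markers ranged from 25327 to 26266 in DMSO, 16512 to 19694 in Met, 19378 to 22878 in FK and 16238 to 19672 in Met+FK. Acinar and islet markers summed to at most 1.89 in a library, with INS, CPA1 and AMY2A at 0 in every library. Of 5 fibroblast markers DCN was at 0 throughout, while COL1A1 lay between 52.0 and 307 and PDGFRB between 7.08 and 42.9, and of 5 leukocyte markers PTPRC lay between 101 and 304. The part of these markers in the results was not tested. The second FK library differed from its replicates more than any other library did (chi-square per degree of freedom of 51.8 and 33.0, against 5.71 to 25.8 for all other pairs of replicates), and values without it are given where they change a member's call.

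Levels below are normalized counts, the read pairs of a gene divided by a size factor for the library. A gene is said to have risen or fallen when limma's adjusted p-value was under 0.05, and is called a differentially expressed gene (DEG) when its fold change was also over 1.5. Log2 fold changes are on the scale of log2(normalized count + 1) and are given ± SE.

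Short promoter sequences of members are shown first, so that genes of both directions can be read side by side. RefSeq windows from 250 bases before to 50 bases after a start site (GRCh38.p14) were matched for 7 of the 10 genes, with 11 windows in all, and not for PSPH, SHMT2 or ALDH1L2. The motifs below were searched on both strands: TGATGNAA, the core of the amino acid response element bound by ATF4, CACGTG, the E-box bound by MYC and its relatives, and CCAAT, the box bound by NF-Y. The motifs do not overlap each other in the runs shown. Capitals mark the motifs, ATTGG being CCAAT on the other strand, and each run is written 5′ to 3′ on the strand of the gene.

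The 120 bases before the start of PSAT1, which rose with metformin, lie at chr9:78297005-78297124 on the plus strand.
PSAT1: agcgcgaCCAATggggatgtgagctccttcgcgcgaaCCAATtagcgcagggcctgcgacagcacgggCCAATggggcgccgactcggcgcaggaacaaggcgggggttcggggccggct

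The same stretch of MTHFD2, which also rose, lies at chr2:74198495-74198614 on the plus strand.
MTHFD2: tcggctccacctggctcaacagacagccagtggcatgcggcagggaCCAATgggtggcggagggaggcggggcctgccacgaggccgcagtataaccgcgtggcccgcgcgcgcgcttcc

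That of SHMT1, which fell, lies at chr17:18363551-18363670 on the minus strand.
SHMT1: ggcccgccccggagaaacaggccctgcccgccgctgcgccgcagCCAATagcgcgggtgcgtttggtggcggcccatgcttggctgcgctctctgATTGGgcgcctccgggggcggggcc

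MTHFD1L, which rose, has an E-box at chr6:150866323-150866346 and a TGATGNAA match at chr6:150866349-150866372, both on the plus strand and both inside the first exon of an annotated transcript or at its edge.
MTHFD1L, E-box: gcccggctcCACGTGcgcagccgg
MTHFD1L, ATF4-type element: gccggctcTGATGCAAtcgcgccg

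MTHFD1, which fell, has an E-box at chr14:64388329-64388352 on the plus strand, in the first exon of several annotated transcripts.
MTHFD1, E-box: gtccctaagCACGTGggttgggtt

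CCAAT was found in windows of 6 of the 7 genes, those of PHGDH, PSAT1, MTHFD2, MTHFD1L, MTHFD1 and SHMT1, and in 34.6% of all 35116 RefSeq windows. It was therefore present in genes that rose and in genes that fell. CACGTG was found in MTHFD1L and MTHFD1, which moved in opposite directions, and in 7.26% of all windows. TGATGNAA was found in 1 of the 7 genes, MTHFD1L, and in 3.62% of all windows. These matches describe the letters of the windows and nothing about binding.

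With metformin the cytosolic folate enzymes fell and most, but not all, of the other members rose. In Met against DMSO 6 of the 10 genes rose (24.9% of all 15376 genes tested rose) and 2 fell (25.9% of all genes). The share of members that fell was thus not above that of all genes. Those that rose were PHGDH, PSAT1 and PSPH of serine synthesis and MTHFD1L, MTHFD2 and ALDH1L2 of the mitochondrial cycle, and those that fell were the cytosolic SHMT1 and MTHFD1. SHMT2 and MTHFD2L did not pass the test. By the DEG rule 5 were higher (12.8% of all genes) and SHMT1 was lower (10.2% of all genes). With libraries scaled to the same total, 5241 genes rose and 2926 fell in place of 3834 and 3989, and the median of all genes moved from a log2 fold change of 0.01 to 0.13. The median log2 fold change of the 10 members was 0.47. In these bulk libraries less RNA per cell and fewer cells cannot be told apart.

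**Figure D1:**
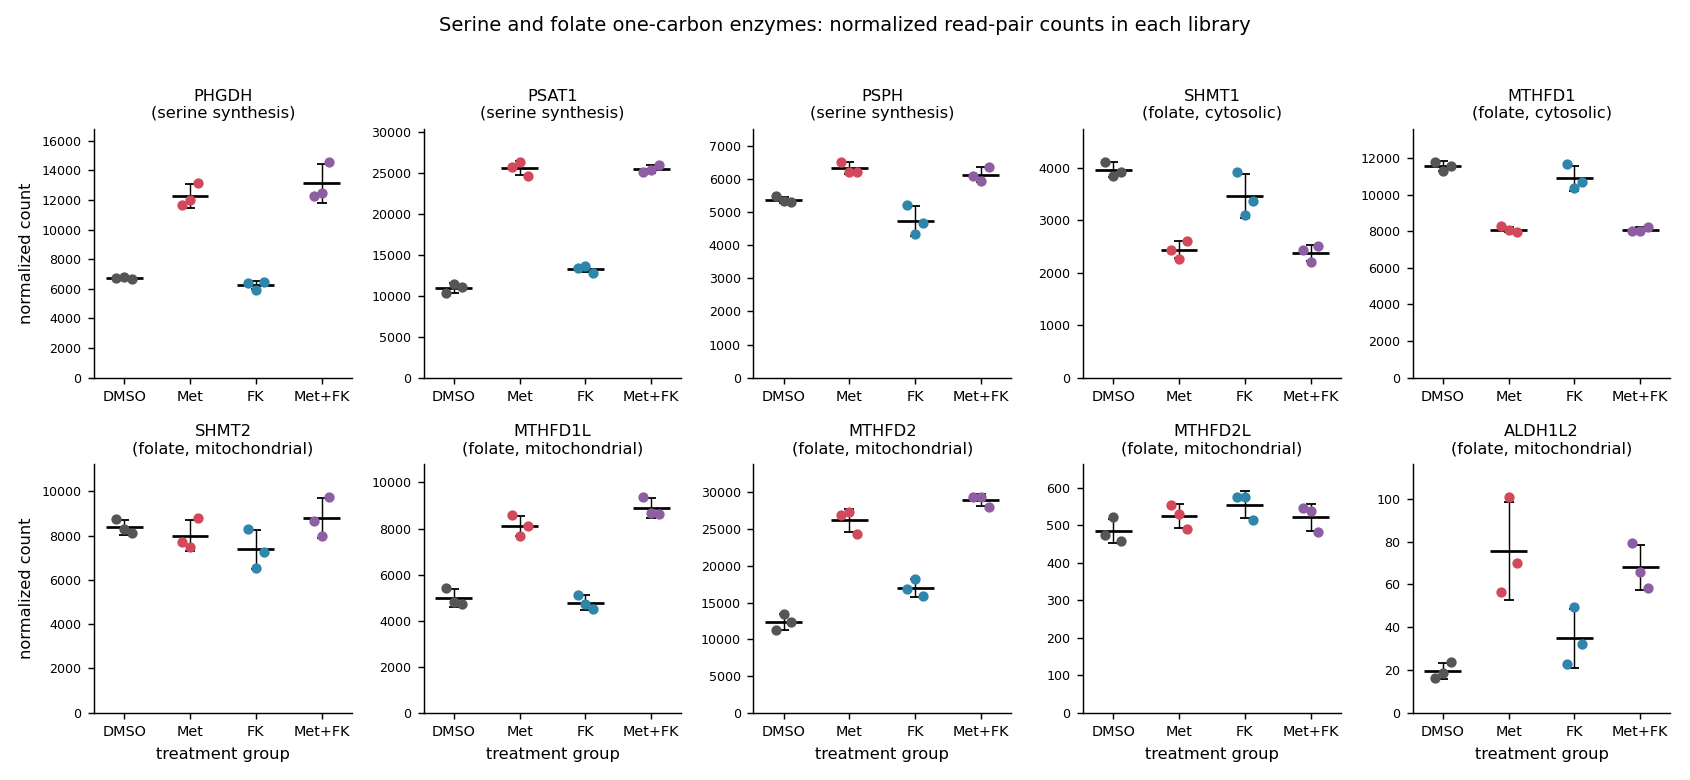
Normalized counts (y axes, linear and from 0) of the 10 genes in each of the 12 libraries by treatment group (x axes). Points are libraries, horizontal bars the mean and error bars the SD of 3 libraries; PSAT1 and MTHFD2 lie at 24338 or above in all 6 libraries with metformin and at 18204 or below in all 6 without it.

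The 3 serine synthesis genes all rose with metformin, PSAT1 the most in Met against DMSO, PHGDH the most in Met+FK against FK, and PSPH the least in both. PHGDH, the enzyme of the committed first step (chr1:119648411-119744226), had normalized counts of 6720, 6801 and 6663 in DMSO, 11637, 11985 and 13171 in Met, 6406, 5922 and 6442 in FK, and 12249, 12494 and 14594 in Met+FK. All 6 libraries with metformin lay above all 6 without it. PHGDH rose 1.82-fold in Met against DMSO (log2 fold change 0.86 ± 0.08, adjusted p = 5.88e-07, limma) and 2.09-fold in Met+FK against FK (1.06 ± 0.08, adjusted p = 8.16e-08).

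PSAT1, the aminotransferase of the second step (chr9:78297125-78330093), had 10358, 11496 and 11072 in DMSO, 25679, 26396 and 24687 in Met, 13388, 13638 and 12834 in FK, and 25082, 25420 and 25957 in Met+FK. The libraries with metformin were again all higher than those without, and the FK libraries lay between DMSO and Met without overlapping either. PSAT1 rose 2.33-fold in Met against DMSO (1.22 ± 0.06, adjusted p = 2.96e-09) and 1.92-fold in Met+FK against FK (0.94 ± 0.06, adjusted p = 2.7e-08).

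PSPH, the phosphatase that releases serine (chr7:56011051-56051604), changed least of the 3. Its normalized counts were 5479, 5327 and 5291 in DMSO, 6523, 6215 and 6221 in Met, 5224, 4336 and 4659 in FK, and 6099, 5926 and 6367 in Met+FK. The groups with and without metformin did not overlap. It rose 1.18-fold in Met against DMSO (0.24 ± 0.07, adjusted p = 0.0139), a call lost without the first Met library (0.21, adjusted p = 0.0584), and 1.30-fold in Met+FK against FK (0.37 ± 0.07, adjusted p = 0.000785).

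The cytosolic folate genes both fell. SHMT1, which splits serine into glycine and a one-carbon unit in the cytosol (chr17:18327860-18363563), had 4118, 3839 and 3918 normalized counts in DMSO, 2440, 2270 and 2606 in Met, 3915, 3108 and 3360 in FK, and 2424, 2198 and 2500 in Met+FK. Every library with metformin lay below every library without it. SHMT1 was 1.62-fold lower in Met than in DMSO (-0.70 ± 0.09, adjusted p = 1.99e-05), and 1.45-fold lower in Met+FK than in FK (-0.54 ± 0.09, adjusted p = 0.000231).

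MTHFD1, which carries the 3 cytosolic reactions between formate and methylene-tetrahydrofolate (chr14:64388031-64463457), had 11809, 11281 and 11586 in DMSO, 8262, 8047 and 7966 in Met, 11658, 10353 and 10676 in FK, and 7994, 7994 and 8228 in Met+FK. The 6 libraries with metformin lay in a narrow band below the other 6. It was 1.43-fold lower in Met than in DMSO (-0.51 ± 0.06, adjusted p = 1.17e-05) and 1.35-fold lower in Met+FK than in FK (-0.43 ± 0.06, adjusted p = 6.44e-05), under the DEG fold in both.

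The mitochondrial arm was uneven. MTHFD2, the NAD-dependent dehydrogenase and cyclohydrolase (chr2:74198610-74217565), had normalized counts of 11308, 13431 and 12282 in DMSO, 26958, 27262 and 24338 in Met, 16825, 18204 and 15889 in FK, and 29398, 29420 and 28032 in Met+FK. The DMSO libraries were lowest, the FK libraries stood above them, and both groups with metformin were higher still, with no overlap between any pair of these groups. MTHFD2 rose 2.12-fold in Met against DMSO (1.09 ± 0.08, adjusted p = 7.67e-08) and 1.71-fold in Met+FK against FK (0.77 ± 0.08, adjusted p = 1.73e-06).

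MTHFD1L, the formate-releasing synthetase (chr6:150865549-151101887), had 5414, 4790 and 4725 in DMSO, 8569, 7688 and 8095 in Met, 5130, 4709 and 4485 in FK, and 9388, 8668 and 8625 in Met+FK. The DMSO and FK libraries overlapped and lay below all libraries with metformin. It rose 1.63-fold in Met against DMSO (0.71 ± 0.08, adjusted p = 4.52e-06) and 1.86-fold in Met+FK against FK (0.90 ± 0.08, adjusted p = 4.78e-07).

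ALDH1L2, the mitochondrial formyl-tetrahydrofolate dehydrogenase (chr12:105019784-105107643), showed the largest fold among the members in Met against DMSO, at the lowest level of the 10. It had 16.2, 18.7 and 23.5 normalized counts in DMSO, 56.4, 101 and 70.0 in Met, 22.7, 49.5 and 32.1 in FK, and 79.4, 65.9 and 58.5 in Met+FK. The second library was the highest of its group in Met and in FK, and the DMSO and FK ranges overlapped. ALDH1L2 rose 3.69-fold in Met against DMSO (1.88 ± 0.28, adjusted p = 6.18e-05) and 2.01-fold in Met+FK against FK (1.01 ± 0.28, adjusted p = 0.00879). It shares 145 exon bases with C12orf45 on the other strand, which had a mean of 907 normalized counts and a log2 fold change of 0.26 in Met against DMSO, and 131 exon bases with WASHC4, with a mean of 1268 and a log2 fold change of 0.95. Since the strand setting of the counting is not stated, reads of these neighbours and of ALDH1L2 cannot be told apart there.

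SHMT2, the mitochondrial counterpart of SHMT1 (chr12:57229573-57234935), did not follow the other mitochondrial genes. It had 8765, 8281 and 8113 in DMSO, 7729, 7475 and 8796 in Met, 8322, 6545 and 7281 in FK, and 8644, 7991 and 9764 in Met+FK. All 4 groups overlapped. In Met against DMSO its log2 fold change was -0.07 ± 0.10 (95% interval -0.28 to 0.13, adjusted p = 0.561), and in Met+FK against FK 0.26 ± 0.10 (adjusted p = 0.0447), a call that was kept in 2 of 6 fits that each left out 1 library. It was lost without the second FK library (0.17, adjusted p = 0.157) and in DESeq2 (adjusted p = 0.0544). The call was also lost in limma with only the libraries compared (adjusted p = 0.0744) and with all genes that had any value above 0 (adjusted p = 0.0775). It was kept in edgeR (adjusted p = 0.0389). In limma it was kept with the replicate block (adjusted p = 0.0095), the GC and length correction (0.0061) and both together (0.0055).

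MTHFD2L, the MTHFD2 homologue that is expressed in many adult tissues (chr4:74114174-74303099), had 474, 522 and 458 in DMSO, 555, 531 and 491 in Met, 577, 577 and 513 in FK, and 546, 538 and 481 in Met+FK. Its 4 groups overlapped as well. Its log2 fold change in Met against DMSO was 0.12 ± 0.10 (95% interval -0.09 to 0.32, adjusted p = 0.322), and the upper end of this interval lies below the change of MTHFD2.

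Met+FK against FK shares no library with Met against DMSO, but both took their spread from the same fit of all 12 libraries. In Met+FK against FK 7 of the 10 genes rose (20.5% of all genes rose) and 2 fell (21.7% of all genes). These were the 8 genes called in Met against DMSO, in the same directions, with SHMT2 added. By the DEG rule 5 were higher (9.27% of all genes) and 0 lower (9.29% of all genes, limma; 0 also in edgeR and DESeq2), since SHMT1 and MTHFD1 both passed the adjusted p-value with folds under 1.5. Without the second FK library SHMT1 was a DEG there (-0.61, adjusted p = 4.13e-05). The median log2 fold change of the members was 0.57, against -0.01 for all genes.

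Met+FK against DMSO, which shares its DMSO libraries with Met against DMSO, gave 6 genes that rose (26.1% of all genes) and 2 that fell (26.1% of all genes). The folds were 1.94 for PHGDH, 2.32 for PSAT1, 1.79 for MTHFD1L, 2.35 for MTHFD2 and 3.38 for ALDH1L2, and SHMT1 and MTHFD1 were 1.67-fold and 1.43-fold lower. PSPH rose 1.14-fold (0.19 ± 0.07, adjusted p = 0.038), and this call was lost in each of the 6 fits that left out 1 library. SHMT2 had a log2 fold change of 0.07 ± 0.10 (adjusted p = 0.593), which was 0.22 and called with the GC and length trend removed (adjusted p = 0.00323). MTHFD2L had one of 0.10 ± 0.10 (adjusted p = 0.374).

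**Figure D2:**
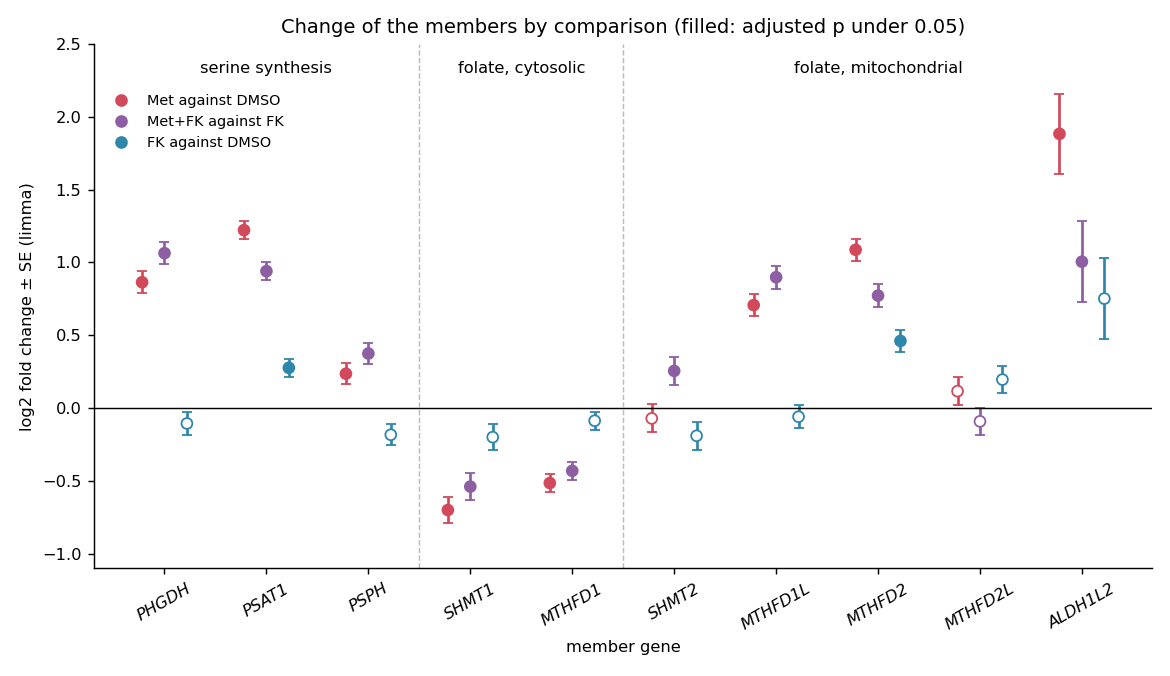
Log2 fold change ± SE (y axis, limma) of each member (x axis) in Met against DMSO, Met+FK against FK and FK against DMSO. Filled points have an adjusted p under 0.05; the cytosolic SHMT1 and MTHFD1 lie between -0.70 and -0.43 in the 2 metformin comparisons, while PHGDH, PSAT1, MTHFD1L, MTHFD2 and ALDH1L2 lie between 0.71 and 1.88.

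FK866 alone moved fewer members. In FK against DMSO, PSAT1 and MTHFD2 rose, 2 of the 10 genes (11.3% of all genes rose), and 0 fell (9.84% of all genes, limma; 0 also in edgeR and DESeq2), while 5 members of either direction had an unadjusted p under 0.05. MTHFD2 rose 1.38-fold (0.46 ± 0.08, adjusted p = 0.00471) and PSAT1 1.21-fold (0.28 ± 0.06, adjusted p = 0.0178), and in each the 3 FK libraries lay above the 3 DMSO libraries. ALDH1L2 had a log2 fold change of 0.75 ± 0.28 (adjusted p = 0.0605), MTHFD2L of 0.20 ± 0.10 (adjusted p = 0.13), and PSPH, SHMT1 and SHMT2 of -0.18, -0.20 and -0.19 (adjusted p of 0.0755, 0.108 and 0.145). PHGDH, MTHFD1 and MTHFD1L lay between -0.11 and -0.06. The counts over all genes varied widely between fits. In place of 1738 that rose and 1513 that fell, there were 1982 and 1130 with TMM scaling, 645 and 527 with the GC and length trend removed, and 111 and 41 with only the libraries compared. Without the first DMSO library there were 107 and 26, without the third 261 and 119, and without the second FK library 175 and 61, while without the first FK library there were 2602 and 2341 and without the third 1331 and 798.

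These FK866 values moved with the base composition of the libraries. The slope of a library's log2 values on GC content ranged from -0.20 to -0.04 per 10 percentage points in DMSO. It ranged from -0.48 to -0.24 in FK, from -0.38 to -0.16 in Met and from -0.29 to -0.18 in Met+FK. MTHFD2 and PSAT1 have GC contents of 41.0% and 42.5%, against a median of 48.5% for the genes tested. With the GC and length trend removed from each library, the log2 fold change of MTHFD2 in FK against DMSO was 0.20 (adjusted p = 0.021) and that of PSAT1 0.15 (adjusted p = 0.0612). The PSAT1 call was also lost without the second FK library (0.26, adjusted p = 0.0693), without the first (0.24, adjusted p = 0.094) or the third DMSO library (0.28, adjusted p = 0.0506). With the replicate number as a block, 3586 of all 15376 genes rose and 3268 fell. Of the members 4 rose and 3 fell in that fit, among them ALDH1L2 (adjusted p = 0.0219), MTHFD2L (0.0422), PSPH (0.0202), SHMT1 (0.0228) and SHMT2 (0.0497). With both the block and the GC correction PSAT1 and MTHFD2 alone of the members were called (adjusted p of 0.0261 and 0.0094). Of all 15324 genes in that corrected fit, 1213 rose and 1227 fell. Without the first FK library, ALDH1L2 rose and PSPH, SHMT1 and SHMT2 fell. The metformin values moved as well. With the GC and length trend removed, 6 members rose and 2 fell in Met against DMSO as before. The log2 fold change of PHGDH went from 0.86 to 1.06 and that of MTHFD2 from 1.09 to 0.87. That of SHMT1 went from -0.70 to -0.57, under the DEG fold. The part of base composition in these differences was not tested beyond this correction.

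No member was called when FK866 was added to metformin. For Met+FK against Met, 0 of the 10 genes rose (0.0911% of all genes) and 0 fell (0.0065% of all genes), and 0 had an unadjusted p under 0.05, in limma, edgeR and DESeq2 alike. All genes gave 14 that rose and 1 that fell, against 13 and 8 with libraries scaled to the same total, 52 and 19 in DESeq2, 78 and 53 with the GC and length trend removed, 72 and 48 with the block, and 209 and 135 with both. Leaving out 1 library gave 2 to 9 that rose and 0 to 1 that fell. The widest 95% interval was that of ALDH1L2, from -0.71 to 0.46 on the log2 scale, and the narrowest was that of PSAT1, from -0.14 to 0.12. MTHFD2 and MTHFD1L had log2 fold changes of 0.15 ± 0.08 and 0.13 ± 0.08 (adjusted p of 0.771 and 0.8), with all 3 Met+FK libraries above all 3 Met libraries in both. MTHFD2 was called there with the block and the GC correction together (0.19, adjusted p = 0.0439).

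The interaction term, which subtracts the FK866 response of cells without metformin from that of cells with it, was tested for each member, and 0 of 10 were called (0.0585% of all genes in either direction, limma) with 4 at an unadjusted p under 0.05. These 4 were PSAT1 at -0.28 ± 0.09 (adjusted p = 0.11), MTHFD2 at -0.31 ± 0.11 (adjusted p = 0.112), SHMT2 at 0.33 ± 0.14 (adjusted p = 0.133) and ALDH1L2 at -0.88 ± 0.39 (adjusted p = 0.148). Of the other tools, edgeR called 0 members, with 1 gene positive and 9 negative of all 15376. DESeq2 called PSAT1 (-0.28, adjusted p = 0.048), in a fit that called 301 genes positive and 395 negative of 11731. With the replicate block PSAT1, MTHFD2 and SHMT2 were called (adjusted p of 0.0141, 0.0142 and 0.0306), but this fit called 2380 genes positive and 2534 negative of all 15376, a share close to that of the members. With the GC and length trend removed, the values of PSAT1, MTHFD2 and SHMT2 were -0.13, -0.02 and 0.09, and 0 members were called in limma with or without the block. Whether the rise of PSAT1 and MTHFD2 with FK866 is smaller in the presence of metformin thus depended on the fit. SHMT2, whose term was positive, did not rise in FK against DMSO.

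The 3 pairs of mitochondrial and cytosolic enzymes were then compared within each library, as the log2 ratio of their normalized counts. This ratio is not corrected for gene length and so its changes can be read, while its level cannot be read as a ratio of molecules. The SHMT2 to SHMT1 ratio was 1.09, 1.11 and 1.05 in DMSO, 1.66, 1.72 and 1.75 in Met, 1.09, 1.07 and 1.12 in FK, and 1.83, 1.86 and 1.96 in Met+FK. It was higher in all 6 libraries with metformin, although SHMT2 itself was not called in Met against DMSO, and FK overlapped DMSO.

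The MTHFD2 to MTHFD1 ratio was -0.06, 0.25 and 0.08 in DMSO, 1.71, 1.76 and 1.61 in Met, 0.53, 0.81 and 0.57 in FK, and 1.88, 1.88 and 1.77 in Met+FK. The 4 groups did not overlap. The MTHFD1L to MTHFD1 ratio was -1.13, -1.24 and -1.29 in DMSO, 0.05, -0.07 and 0.02 in Met, -1.18, -1.14 and -1.25 in FK, and 0.23, 0.12 and 0.07 in Met+FK. Here too the libraries with metformin stood above those without, and FK overlapped DMSO.

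**Figure D3:**
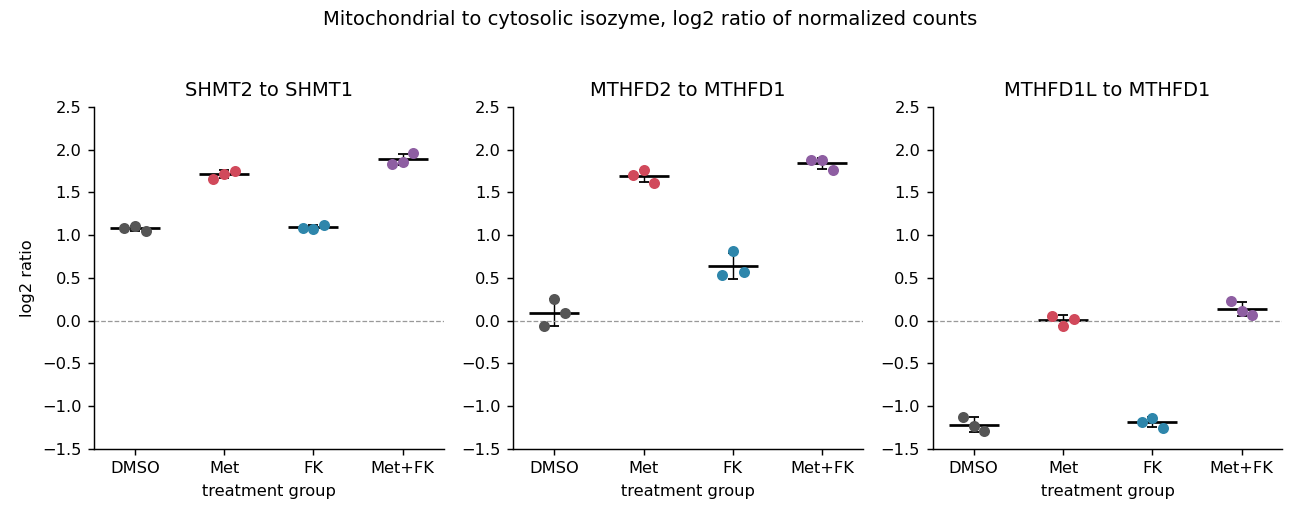
Log2 ratio of normalized counts (y axis) of a mitochondrial enzyme to its cytosolic counterpart in each library by treatment group (x axis), for 3 pairs of genes. Points are libraries, bars the mean and error bars the SD of 3 libraries; in each pair the 6 libraries with metformin lie above the 6 without it.

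Between Met and DMSO the ratios differed by 0.63 ± 0.03 for SHMT2 to SHMT1, 1.60 ± 0.10 for MTHFD2 to MTHFD1 and 1.22 ± 0.06 for MTHFD1L to MTHFD1 on the log2 scale, or 1.55-fold, 3.03-fold and 2.33-fold. Between Met+FK and FK they differed by 0.79 ± 0.04, 1.20 ± 0.10 and 1.33 ± 0.06. A two-sided exact permutation test of 3 libraries against 3 gave p = 0.1 for each of these 6 differences, the smallest it can give. With the metformin label permuted within each FK866 arm over all 12 libraries, each of the 3 pairs gave p = 0.005 (exact, two-sided, 400 arrangements), again the smallest possible, and the values adjusted over the 3 pairs were the same. This test took the arms as independent of each other, although same-numbered libraries deviated together between them, and the pairing was not used. The mean differences over both arms were 0.71, 1.40 and 1.28. Both MTHFD ratios share MTHFD1, so they are not independent of each other. The pairs were formed from members chosen with earlier results of these data known, which these p-values do not take into account. Between FK and DMSO only the MTHFD2 to MTHFD1 ratio had groups that did not overlap (0.55 ± 0.13, exact permutation p = 0.1).

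Averaged over genes on the log2 scale, the 5 mitochondrial folate genes had a mean of 10.43 ± 0.04 (SD, n = 3) in DMSO and 11.18 ± 0.06 in Met, the 2 cytosolic genes 12.72 ± 0.04 and 12.12 ± 0.05, and the 3 serine synthesis genes 12.84 ± 0.02 and 13.62 ± 0.01. In FK the 3 means were 10.66 ± 0.10, 12.58 ± 0.13 and 12.84 ± 0.06, and in Met+FK 11.23 ± 0.07, 12.10 ± 0.06 and 13.63 ± 0.07. Each gene weighs the same in these means, so ALDH1L2, the lowest of the 10, adds the largest change to the mitochondrial mean. Its log2 fold change was 1.88 in Met against DMSO, and 0.75 and not called in FK against DMSO. SHMT2 and MTHFD2L, in the same mean, were at -0.07 and 0.12 in Met against DMSO. Per kilobase of the canonical transcript, the mitochondrial genes made up 61.5% ± 0.93 (SD, n = 3) of the summed level of the 7 folate genes in DMSO, 64.9% ± 1.03 in FK, 77.6% ± 0.23 in Met and 79.4% ± 0.27 in Met+FK. By coding length, an alternative chosen after seeing the data, these shares were 73.9%, 78.7%, 88.0% and 89.1%. The order of the groups was the same by either length.

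Between genes, levels are given as normalized counts per kilobase of transcript. In DMSO, PSAT1 was the highest at 4975 ± 261 (SD, n = 3) and was followed by SHMT2 at 3888 ± 157, MTHFD1 at 3665 ± 84.1 and PHGDH at 3606 ± 37.3, which lay within or close to each other's spread. MTHFD2 at 2803 ± 241 and PSPH at 2718 ± 50.6 did not differ beyond their spread, nor did SHMT1 at 1566 ± 56.9 and MTHFD1L at 1442 ± 110. MTHFD2L at 206 ± 14.1 and ALDH1L2 at 2.62 ± 0.50 were far lower. In Met the order was PSAT1 at 11599 ± 389, PHGDH at 6573 ± 431, MTHFD2 at 5947 ± 365, SHMT2 at 3709 ± 325, PSPH at 3201 ± 89.2, MTHFD1 at 2566 ± 48.5, MTHFD1L at 2352 ± 128 and SHMT1 at 965 ± 66.6. By this measure MTHFD1 was in the third place in DMSO and the sixth in Met, but by coding length it was in the sixth place in both. The place of MTHFD2 also depends on the length used, since its canonical transcript of 4403 bases has a coding part of 1050 bases. By coding length it was the highest of the 10 in DMSO, at 11753 ± 1012 per kilobase, ahead of PSAT1 at 9888 ± 518.

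The pattern of MTHFD2 over the 12 libraries was most like that of LINC00662, ZFP90, SLFN5, DCAF10 and ANKAR, with Pearson correlations of 0.991 to 0.995 of log2 values, and 325 of 15375 genes reached 0.95. Among the members PSAT1 was nearest (r = 0.978), followed by ALDH1L2 (0.928), MTHFD1L (0.895), PHGDH (0.882) and PSPH (0.652). SHMT1 and MTHFD1 had correlations of -0.966 and -0.957 with it, and SHMT2 and MTHFD2L of 0.11 and 0.36. MTHFD1 was most like LUC7L, PSMD11, HSP90AB1, RANBP1 and TPM3 (0.993 to 0.997), and 639 of 15375 genes reached 0.95 with it. SHMT1, the nearest member, had a correlation of 0.978 with MTHFD1 and ranked 160 among all genes. The points of these correlations fall into groups with and without metformin and share libraries, depth and base composition, so they are a description of the pattern and carry no p-value.

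ATF4 and MYC, which encode transcription factors with binding sites described in this pathway, both rose. ATF4 had normalized counts of 15378, 14771 and 13259 in DMSO, 26928, 25882 and 27211 in Met, 15637, 13759 and 13611 in FK, and 29032, 27251 and 28039 in Met+FK. The groups with and without metformin were well apart, and DMSO and FK overlapped. ATF4 rose in Met against DMSO (0.88 ± 0.07, adjusted p = 2.61e-07) and in Met+FK against FK (0.97 ± 0.07, adjusted p = 1.08e-07), and its value in FK against DMSO was -0.01 ± 0.07 (adjusted p = 0.901). MYC rose by 0.38 ± 0.07 in Met against DMSO (adjusted p = 0.000497) and by 0.89 ± 0.07 in Met+FK against FK (adjusted p = 2.28e-07). In Met+FK against Met its log2 fold change was 0.37 (adjusted p = 0.0686).

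Of 18 genes listed as ATF4 and its targets outside the 10 members, 17 rose in Met against DMSO and 1 fell, with a median log2 fold change of 1.70 against 0.01 for all genes. Over all genes tested, 24.9% rose and 25.9% fell in this comparison. The shares were 20.5% and 21.7% in Met+FK against FK, and 11.3% and 9.84% in FK against DMSO. They are also the background of the lists that follow. NUPR1 and DDIT3, both stress-response regulators of transcription, rose the most (3.01 ± 0.22 and 2.82 ± 0.13, adjusted p of 1.01e-07 and 1.58e-09). ALDH18A1, the mitochondrial enzyme that starts proline synthesis from glutamate, fell (-0.33 ± 0.08, adjusted p = 0.00274). In FK against DMSO 8 of the 18 rose and 0 fell (median 0.31), and in Met+FK against FK 17 rose (median 1.24). Members that rose with metformin thus changed alongside this list, while the cytosolic SHMT1 and MTHFD1 moved the other way.

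The cytosolic genes moved in the direction of the S phase genes. Of 14 such genes 13 fell in Met against DMSO (median -1.18), 14 fell in Met+FK against FK (median -1.13), and 6 fell and 1 rose in FK against DMSO (median -0.18). RRM2, a subunit of ribonucleotide reductase, and GINS2, of the replicative helicase, fell the most (-1.71 ± 0.06 and -1.45 ± 0.12, adjusted p of 4.22e-11 and 2.92e-07). The part of cell-cycle state in the fall of SHMT1 and MTHFD1 was not tested.

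**Figure D4:**
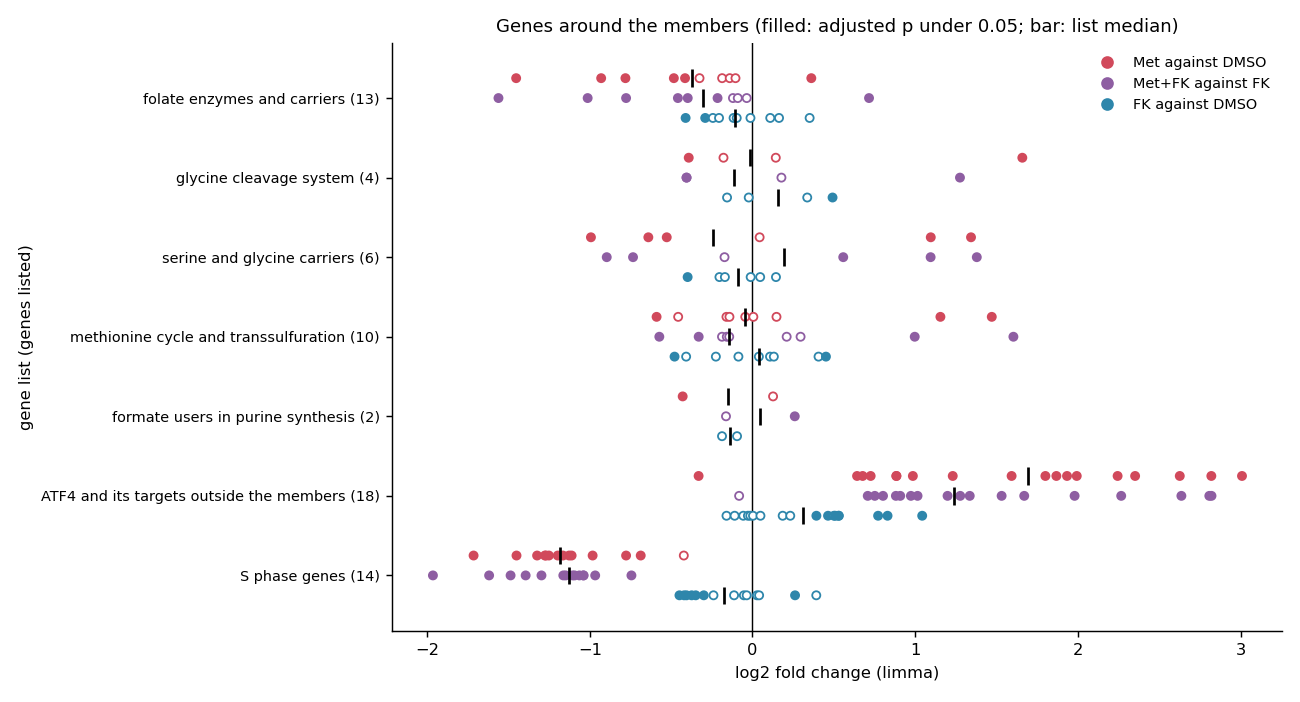
Log2 fold change (x axis, limma) of the tested genes of 7 lists (y axis, with the number of genes listed) in Met against DMSO, Met+FK against FK and FK against DMSO. Filled points have an adjusted p under 0.05 and black bars are list medians; in Met against DMSO the ATF4 list has a median of 1.70 and the S phase list one of -1.18.

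Of 13 other folate enzymes and carriers 10 were tested, and in Met against DMSO 1 rose and 5 fell (median -0.37; 24.9% and 25.9% of all genes). TYMS, the thymidylate synthase that consumes methylene-tetrahydrofolate, had 8928, 8459 and 8641 normalized counts in DMSO and 3162, 3092 and 3254 in Met, and fell by 1.45 on the log2 scale (± 0.07, adjusted p = 2.78e-09). The 2 groups were far apart. SLC19A1, the reduced folate carrier of the plasma membrane, fell by 0.93 (± 0.09, adjusted p = 1.58e-06). ALDH1L1, the cytosolic counterpart of ALDH1L2, was not tested, with at most 11.3 normalized counts in any library, nor were FTCD and FOLR1. Of the 10 tested, 1 rose and 6 fell in Met+FK against FK (median -0.31), and in FK against DMSO 2 fell (median -0.11), among them SLC19A1 (-0.41 ± 0.09, adjusted p = 0.0184).

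Serine and glycine carriers moved in both directions. Of 6 listed genes 2 rose (24.9% of all genes) and 3 fell (25.9% of all genes) in Met against DMSO (median -0.24). The plasma membrane carriers SLC1A4, which takes up serine and other small neutral amino acids, and SLC6A9, which takes up glycine, rose (1.34 ± 0.07 and 1.10 ± 0.10, adjusted p of 7.78e-09 and 1.01e-06). SFXN1, the mitochondrial serine carrier, and its relative SFXN2 fell (-0.64 ± 0.07 and -0.99 ± 0.12, adjusted p of 6.93e-06 and 9.58e-06). SFXN1 had 8693, 9659 and 10123 normalized counts in DMSO, 5827, 6339 and 6078 in Met, 9736, 8848 and 9642 in FK, and 5414, 5652 and 5896 in Met+FK. Its level with metformin was thus below every library without it, opposite to MTHFD2 and MTHFD1L, which use the mitochondrial one-carbon units. Of the carriers, 3 rose and 2 fell in Met+FK against FK (median 0.19), and in FK against DMSO 1 fell (median -0.09).

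In the glycine cleavage system, which feeds one-carbon units from glycine into the mitochondrial folate pool, 1 of 4 genes rose and 1 fell in Met against DMSO (median -0.02). These shares were close to those of all genes, 24.9% and 25.9%. AMT, the aminomethyltransferase, rose by 1.66 ± 0.29 (adjusted p = 0.00029) from a mean of 13.4 to 43.5 normalized counts, and GCSH, the lipoyl carrier protein, fell by 0.39 (± 0.11, adjusted p = 0.00669). Of the 4, 1 rose and 1 fell in Met+FK against FK (median -0.11), and in FK against DMSO 1 rose (median 0.16).

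In the methionine cycle and transsulfuration 9 of 10 genes were tested, and 2 rose and 1 fell in Met against DMSO (median -0.04). Neither share was above that of all genes, 24.9% and 25.9%. CBS and CTH, the enzymes that use serine and homocysteine to make cysteine, rose (1.47 ± 0.09 and 1.16 ± 0.14, adjusted p of 3.22e-08 and 1.17e-05), while MAT2A, the S-adenosylmethionine synthetase, fell (-0.59 ± 0.08, adjusted p = 4.76e-05). MAT2A also fell in FK against DMSO (-0.48 ± 0.08, adjusted p = 0.00687), and its value in Met+FK against Met was -0.46 (adjusted p = 0.0509). Of the 9, 2 rose and 2 fell in Met+FK against FK (median -0.14), and in FK against DMSO 1 rose and 1 fell (median 0.04).

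GART and ATIC are the enzymes that use formyl-tetrahydrofolate in purine synthesis. In Met against DMSO ATIC fell (-0.43 ± 0.08, adjusted p = 0.000461) and GART had a log2 fold change of 0.13 (adjusted p = 0.083). The value of ATIC in Met+FK against FK was -0.16 ± 0.08 (adjusted p = 0.116), while GART rose there (0.26 ± 0.06, adjusted p = 0.00235) and in Met+FK against DMSO (0.17 ± 0.06, adjusted p = 0.0276).

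Some members have annotated pseudogenes, whose sequence identity to the member was not measured. GENCODE 44 holds 7 pseudogenes of MTHFD2, 4 of PSAT1 and 1 each of PSPH, SHMT1 and MTHFD1 by name, and 0 of these 14 were rows of the deposited table, so how reads matching both places were counted is unknown for these 5 genes. Besides ALDH1L2, the exons of SHMT1, MTHFD1, SHMT2, MTHFD2 and MTHFD2L share 33 to 1556 bases with genes on the opposite strand, the most between MTHFD1 and AL122035.2, which had a mean of 19.8 normalized counts against 9655 for MTHFD1.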

How the data were processed

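The members and gene lists were chosen with earlier results of these data known. For the 12 libraries the authors used cutadapt for trimming, STAR for alignment to hg38 and featureCounts for read pairs per gene. The deposited values are a signal, gene counts divided by 1 DESeq2 size factor per library (0.867 to 1.21). The annotation and strand setting are not given in the sources used here. Dividing by each library's smallest step gave read pairs again (100% whole within 0.01 reads), and 0 columns of other samples were present.

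Tests used limma-trend (limma 3.58.1, R 4.3.3) on log2(normalized count + 1) for the 15376 genes averaging 10 or more. The model had 1 mean per treatment, and p-values were adjusted per comparison by the Benjamini-Hochberg method. On the recovered read pairs edgeR's quasi-likelihood test (4.0.16) called 4134 genes higher and 3669 lower in Met against DMSO. DESeq2 (1.42.0) was a further alternative. Ratios were tested by exact permutation (Python 3.11.15). On simulated data, 169 of 200 genes with a 2-fold change between 3 libraries and 3 were called DEGs, as were 3 unchanged genes. The simulated counts held no GC or replicate effect. GC content and length come from canonical GENCODE 44 transcripts, known for 15324 of the genes.

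Named were the 10 members, ATF4 and MYC, up to 2 called genes of each list with the largest and 2 with the smallest log2 fold change in Met against DMSO, the 5 genes most like MTHFD2 and MTHFD1, and copies of members. Some of what this rule names is not reported here. C12orf45, WASHC4, AL122035.2, GART, ALDH1L1, FTCD and FOLR1 were named after their values were seen. The labels number the replicates alike in each group. Same-numbered libraries deviated together between DMSO and FK (correlations across genes of 0.25, 0.42 and 0.22) and between Met and Met+FK (0.17, 0.20 and 0.23), so the values, not the labels, were the ground for pairing them, and the blocked value is given where it changes a call. The block gave each replicate number 1 effect over all 4 groups. It thus also tied DMSO to Met+FK (0.05, 0.16 and 0.02) and FK to Met+FK (0.05, 0.24 and 0.14), where the values give less ground. Other group pairs did not all pass 0.1, but Met and FK reached 0.40 and 0.30 in replicates 2 and 3. With the GC and length trend removed, the values were 0.14, 0.17 and 0.13 for DMSO and FK. They were then 0.16, 0.10 and 0.07 for Met and Met+FK, and 0.12, 0.14 and 0.12 for Met and FK. The likeness was thus not particular to the paired groups and was lower after this correction. Differently numbered libraries were not compared.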

Additional observations from a re-analysis of the deposited data

How the results depend on the processing

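The alternatives were pseudocounts of 0.1 and 10, both filters, same-total and TMM scaling, only the libraries compared, the replicate block, GC and length correction with and without it, edgeR, DESeq2, and each library left out. For the members' tests, 700 of 719 values kept their direction and side of the threshold in the alternatives that kept all libraries compared, 6 lost and 13 gained a call, and of 420 that left out 1 library 14 lost and 5 gained one. No called value of a member changed sign. ATF4, not called in FK against DMSO (-0.01), was at 0.17 (adjusted p = 0.0183) with the block and GC correction.

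In Met against DMSO, members lower by the DEG rule went from 1 to 0 with same-total scaling and with either GC correction, and to 2 by adjusted p alone. In FK against DMSO, members that rose went from 2 to 1 with only the libraries compared or the GC correction and to 4 with the replicate block. They ranged from 1 to 3 with 1 library left out. Those that fell went from 0 to 3 with the block and ranged from 0 to 3 with 1 library left out. DEGs higher went from 0 to 1 with the block and to 2 by adjusted p alone, and ranged from 0 to 1 with 1 library left out. By adjusted p alone, lower members were 2 in place of 1 in Met+FK against DMSO and 2 in place of 0 in Met+FK against FK (0 to 1 with 1 library left out). Members that rose in Met+FK against Met went from 0 to 1 with the block and GC correction. In the interaction the block called 1 positive and 2 negative members and DESeq2 called 1 negative, with 0 to 1 positive without 1 library.

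With the GC correction the Met against DMSO differences of log2 ratios were 0.69 for SHMT2 to SHMT1 and 1.35 for MTHFD2 to MTHFD1. Without 1 library these differences ranged from 0.61 to 0.65 and from 1.52 to 1.68. MTHFD2L was called in Met against DMSO with same-total scaling alone (0.24, adjusted p = 0.0498). The block changed no other call of a member than those given. The cause of these shifts was not tested. Under 100 counts, as for ALDH1L2, counting error and spread leave the widest intervals.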
